A study of Mus musculus with 6 samples.

Results

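The DNAJ and heat shock chaperone genes are described here in mouse long-term haematopoietic stem cells (LT-HSCs), the marrow cells that sustain blood formation. Members were the genes of the deposited table whose symbol begins with Dnaja, Dnajb or Dnajc and a number, or with Hsp followed by a, b, d, e, h or a digit, without pseudogene symbols that contain -ps, together with the heat shock factor genes Hsf1 and Hsf2. This gave 69 members among 14986 genes. The choice used symbols and no measured value.

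The libraries came from 3 samples labelled wild type and 3 labelled Zcchc8 KO. Each held polyadenylated RNA of 1500 LT-HSCs, sorted after red cells of crushed femur, tibia and hip marrow had been lysed and cells of mature lineages depleted. Libraries were built with a transposase from amplified cDNA. Zcchc8 encodes a subunit of the complex that feeds nuclear transcripts into exosome decay, and the study asked what its depletion does. The sources used here do not give age, strain, the allele, any Cre driver or the sort gate. No source says whether the samples were separate animals, so p-values rest on the spread among these 6 samples, and that spread may be technical.

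Chaperones of the HSP70 family bind exposed stretches of unfolded proteins and release them in cycles of ATP hydrolysis. J proteins, named DNAJA, DNAJB and DNAJC by their domain layout, bring clients to HSP70 and start that hydrolysis, while exchange factors such as HSP110 and BAG proteins reset it. HSP90 finishes the folding of kinases and receptors, HSP60 with HSP10 forms the folding chamber of mitochondria, and small heat shock proteins hold unfolded clients without ATP. Under heat or proteotoxic stress the factor HSF1 binds heat shock elements, which are inverted repeats of GAA units, and raises the inducible members. The endoplasmic reticulum (ER) has chaperones of its own, raised by the unfolded protein response through ER stress elements. Blood stem cells are known for a low rate of protein synthesis and for sensitivity to misfolded protein.

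Zcchc8 stood at 8.93, 5.24 and 5.16 FPKM (fragments counted per length of exon and per sequencing depth) in wild type against 10.4, 5.54 and 5.92 FPKM in the libraries labelled KO. Its log2 change was 0.15 ± 0.33 (SE), with a limma adjusted p of 0.935 and p = 0.5 in an exact two-sided permutation test, where 0.1 is the smallest p that 3 against 3 can give. The targeted gene was not lower by value in the libraries labelled KO, and 1 value per gene cannot show a deleted exon, so every direction below is that of the labels. The reads behind the values numbered 18059320 to 25709662 per library. The 14 LT-HSC marker genes were all detected, with a summed level of 541.9 to 598.1 FPKM in wild type against 441.3 to 507.4 FPKM in KO. Summed levels of other cell types' markers are given as ranges over libraries. The 8 erythroid genes in the table, of 9 listed, summed to 115.2 to 149.0 FPKM in wild type against 436.0 to 465.0 FPKM in KO, and the 4 of 6 eosinophil genes to 0.116 to 1.02 and 160.9 to 204.8 FPKM. The 9 of 9 granulocyte genes summed to 2986 to 3144 FPKM in wild type against 3829 to 4261 FPKM in KO. Of these, 6 were higher and 3 lower by value. The largest was S100a9, with means of 1390 and 2000 FPKM, while Prtn3 and Mpo were lower in KO without overlap. The 5 of 8 monocyte and dendritic cell genes summed to 139.7 to 157.1 and 266.8 to 299.5 FPKM, all 5 higher by value. The 4 of 7 T and NK cell genes summed to 189.0 to 232.4 and 310.2 to 323.4 FPKM, with 3 higher and 1 lower. The 7 of 8 B cell genes summed to 809.0 to 926.4 FPKM in wild type against 82.1 to 117.1 FPKM in KO, a fall that rests on Igkc, which went from a mean of 795.0 to 0.451 FPKM, while 4 of the 6 tested were higher by value. The 6 of 6 megakaryocyte genes stood at 216.3 to 314.1 FPKM in wild type against 349.5 to 387.6 FPKM in KO, with 2 of the 5 tested higher and 3 lower by value. The 5 of 5 multipotent progenitor genes stood at 117.4 to 124.5 FPKM in wild type against 176.3 to 189.3 FPKM in KO, with 2 of the 4 tested higher and 2 lower, and the 4 of 6 endothelial and stromal genes at 7.96 to 10.6 and 10.4 to 12.6 FPKM. No marker in the table was at 0 in all libraries. Their part in the results below was not tested, and in bulk samples fewer cells of a type and less RNA per cell cannot be told apart.

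The promoter sequences that bear on the members are shown first, from RefSeq (GRCm38.p6). There 56 of the 69 members have 1 or more windows, each from 250 bases before to 50 after a start of the gene. In the shares below a gene counted if any of its windows held a match. The share of all windows is per window, so it is not the same measure. A heat shock element of 2 units was searched as GAANNTTC or TTCNNGAA, which overlap in longer arrays. Both are their own reverse complement, so each match lies on both strands. Such a match was in the windows of 14 of the 56 members (25.0%), against 14.4% of 8535 tested genes with a window and 15.1% of all 32851 windows. The genes Hspa1a and Hspa1b, which encode the stress-inducible HSP70, have windows identical at 296 of 300 positions, and the stretch shown holds 1 match in each. The first stretch is chr17:34972207-34972306 and the second chr17:34959289-34959388, both on the minus strand. Capitals mark the element in this and the following sets.
Hspa1a: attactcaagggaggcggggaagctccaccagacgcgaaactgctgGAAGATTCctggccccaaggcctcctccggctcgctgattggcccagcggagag
Hspa1b: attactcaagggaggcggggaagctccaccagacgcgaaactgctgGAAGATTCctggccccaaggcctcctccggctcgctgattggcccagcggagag

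Further inducible genes and the small heat shock protein gene Hspb6 also held the 2-unit element. Of the 7 genes grouped below as heat-inducible, 6 had a window and 5 of these held it. Dnajb1 did not, and Hsp90aa1 had no window. The stretch of Hspb1 (chr5:135887766-135887865, plus strand) holds 2 matches, and that of Hspb6 (chr7:30553135-30553234, plus strand) holds 1. Shorter stretches are given for the J protein gene Dnaja1 (chr4:40722333-40722362, plus strand) and the HSP110 gene Hsph1 (chr5:149636351-149636380, minus strand).
Hspb1: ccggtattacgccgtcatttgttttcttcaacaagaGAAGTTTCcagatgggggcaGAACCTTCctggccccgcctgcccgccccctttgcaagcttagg
Hspb6: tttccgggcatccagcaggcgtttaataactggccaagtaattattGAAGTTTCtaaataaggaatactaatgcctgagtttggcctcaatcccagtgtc
Dnaja1: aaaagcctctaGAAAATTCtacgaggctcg
Hsph1: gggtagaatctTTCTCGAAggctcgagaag

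An element of 3 units, in which either 2-unit form goes on after 2 further bases with another inverted unit, on either strand, was in the windows of 4 members, Dnajb6, Hspd1, Hspe1 and Hsph1. That is 7.14% of the members with a window, against 0.609% of the tested genes and 0.603% of all windows. Hspd1 and Hspe1, which encode HSP60 and HSP10, lie head to head and share the stretch shown (chr1:55088053-55088082, plus strand), where overlapping units run together.
Hspe1: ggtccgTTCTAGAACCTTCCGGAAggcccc

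The ER stress element, CCAAT and CCACG with 9 bases of any kind between them, searched on both strands and added after the data were seen, was in the windows of 3 members. These were Hspa5, Hsp90b1 and Dnajc3, all of which act in the ER. They make up 5.36% of the members with a window, against 0.176% of the tested genes and 0.119% of all windows. The stretches are chr2:34772019-34772048 (plus strand) for Hspa5, chr10:86705595-86705694 (minus strand) for Hsp90b1 and chr14:118937786-118937885 (plus strand) for Dnajc3.
Hspa5: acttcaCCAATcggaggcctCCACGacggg
Hsp90b1: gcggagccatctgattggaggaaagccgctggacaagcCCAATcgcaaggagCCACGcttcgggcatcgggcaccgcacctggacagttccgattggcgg
Dnajc3: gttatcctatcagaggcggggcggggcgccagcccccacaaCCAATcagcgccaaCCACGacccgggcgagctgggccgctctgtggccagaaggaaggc

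The CCAAT box, searched on both strands and part of the ER element, was in the windows of 25 members (44.6%), against 43.9% of the tested genes and 37.4% of all windows. The upstream stretch of Dnajb7 (chr15:81408333-81408432, minus strand) is shown because this gene was the member that passed the test below. Its window held CCAAT and no match to the heat shock or ER element, which says only that those letters are not in this window.
Dnajb7: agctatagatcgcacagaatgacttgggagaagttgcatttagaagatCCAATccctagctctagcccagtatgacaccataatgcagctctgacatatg

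The levels of the members spanned a wide range. Over all 6 libraries, 6 members had a mean of at least 100 FPKM, 26 lay from 10 to 100 FPKM, 33 from 1 to 10 FPKM and 4 below 1 FPKM. Among the highest were Hsp90ab1, the constitutive cytosolic HSP90, Hspa8, the constitutive cytosolic HSP70, and Hspa5, the HSP70 of the ER. The members together took 0.43% to 0.466% of the summed FPKM of a library. In wild type the median coefficient of variation was 6.02% for the members of at least 100 FPKM, 14% for those from 10 to 100 FPKM and 39.6% for those from 1 to 10 FPKM. Differences between the groups are thus measured more finely for the abundant chaperones than for the rare ones.

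**Figure D1:**
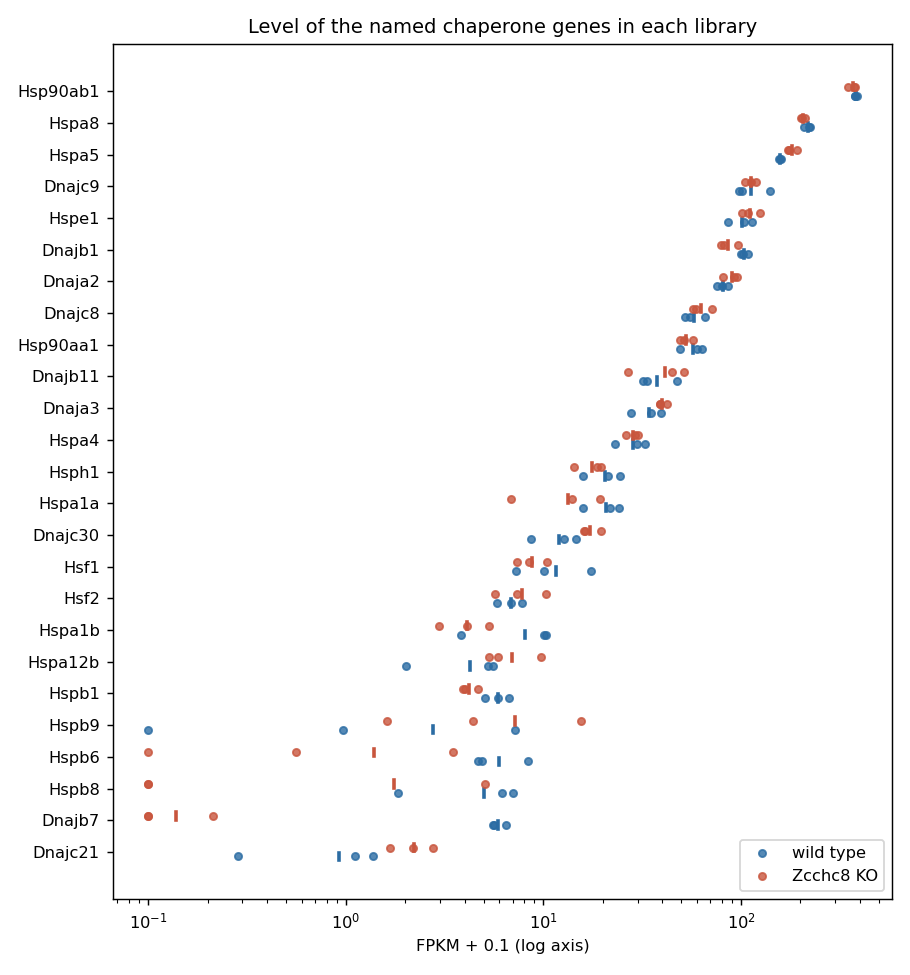
Level of 25 chaperone genes in each library, as FPKM + 0.1 on a log axis; points are libraries and ticks are group means. Only Dnajb7 has 3 wild-type points near 6 FPKM and KO points at or near 0.

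The members as a set were close to level between the groups. Of the 69, 65 averaged 1 FPKM or more and were tested with the rest of the table, by limma on log2(FPKM + 1) with Benjamini-Hochberg adjustment over 11837 genes. At an adjusted p under 0.05, 0 members were higher in KO and 1 was lower, Dnajb7, where the background over all tested genes was 0.177% higher and 0.0507% lower. At an unadjusted p under 0.05 there were 2 members, Dnajb7 and Hspb6 (3.08%), against 9.20% of all tested genes. The groups did not overlap for 3 members that were higher in KO, Dnajc30, Hspa5 and Dnajc21 (4.62%, against 8.24% of all tested genes). They did not overlap for 5 that were lower, Dnajb7, Hspb6, Dnajb1, Hspb1 and Dnajb2 (7.69%, against 6.99%). The shares at an unadjusted p and without overlap are near or below the background. The lower calls at an adjusted p, 1 of 65 members against 6 of 11837 genes, are above it but rest on 1 gene. The median log2 change of the tested members was 0.033, against 0.002 over all tested genes, 36 were higher and 29 lower by value, and 48 of the 65 differed by less than 0.3 on the log2 scale.

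**Figure D2:**
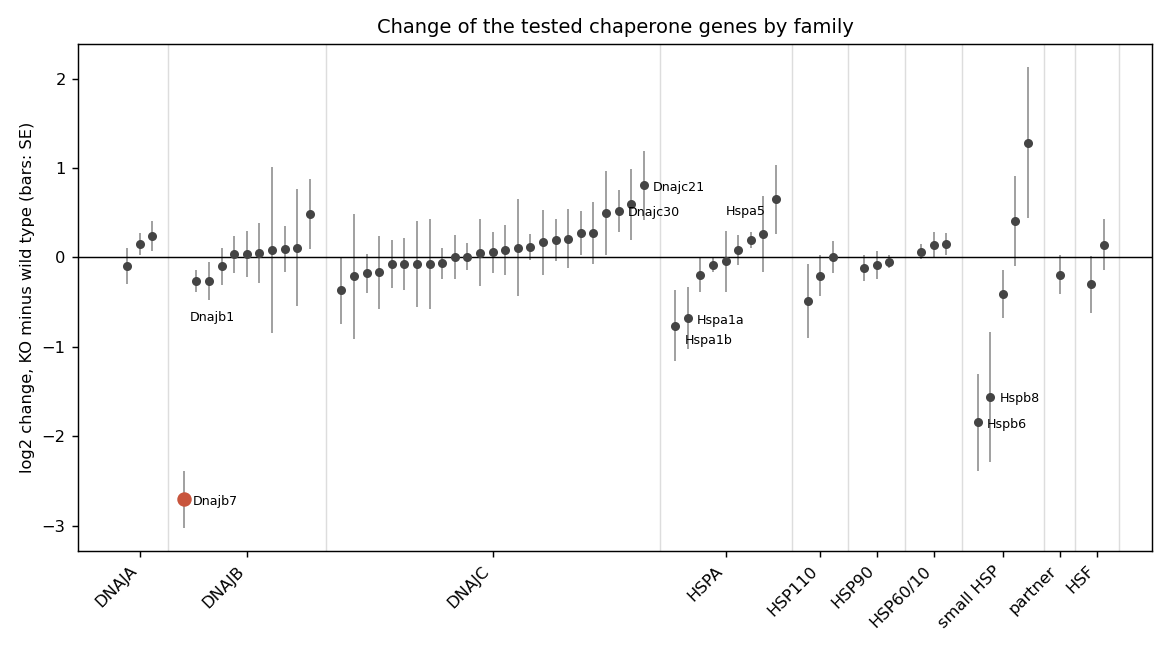
Log2 change (KO minus wild type, on log2(FPKM + 1)) of the 65 tested members, by family; points are genes, bars are SE, and members with an unadjusted p under 0.1 are named. Dnajb7, in red, is the one past the threshold, and most others lie within 0.3 of 0.

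Among the J proteins, 39 of 41 were tested, of which 25 were higher and 14 lower by value, with a median log2 change of 0.05. The DNAJB class sits mostly with cytosolic and ER HSP70s and includes Dnajb7, a gene of 1 exon. Dnajb7 (ENSMUSG00000047108.4, chr15:81406926-81408299, minus strand, GRCm38) was at 5.52, 5.45 and 6.35 FPKM in wild type against 0.113, 0 and 0 FPKM in KO. Its lowest wild-type library was far above its highest KO library. The mean fell from 5.77 ± 0.501 to 0.0377 ± 0.0654 FPKM (SD, n = 3 each), a log2 change of -2.71 ± 0.32 (SE) on the log2(FPKM + 1) scale with a limma adjusted p of 0.0125. The reads recovered from the values were 137, 137 and 165 in wild type and 4, 0 and 0 in KO, so 439 against 4 in all. Per read of depth this is a wild-type to KO ratio of 130.1, with a 95% exact interval of 50.4 to 479.5 that covers counting error only.

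The direction of Dnajb7 held in every setting that could test it, and its adjusted p depended on the setting. The limma adjusted p was 0.0601 with a pseudocount of 0.1 FPKM, 0.0775, 0.0822 and 0.0729 without wild-type library 1, 2 or 3, and 0.0424, 0.0559 and 0.0641 without KO library 1, 2 or 3. By voom on recovered reads it was 0.341, with a log2 change of -7.37 on that scale. Dnajb7 lies within the span of Xpnpep3, which encodes a mitochondrial peptidase and is on the opposite strand, with 0 exon bases in common. Xpnpep3 was at 2.12, 2.26 and 1.84 FPKM in wild type against 2.42, 2.13 and 2.06 FPKM in KO, for a log2 change of 0.06 ± 0.31 with a limma adjusted p of 0.975. The values of the host gene overlapped between the groups while those of Dnajb7 did not.

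**Figure D3:**
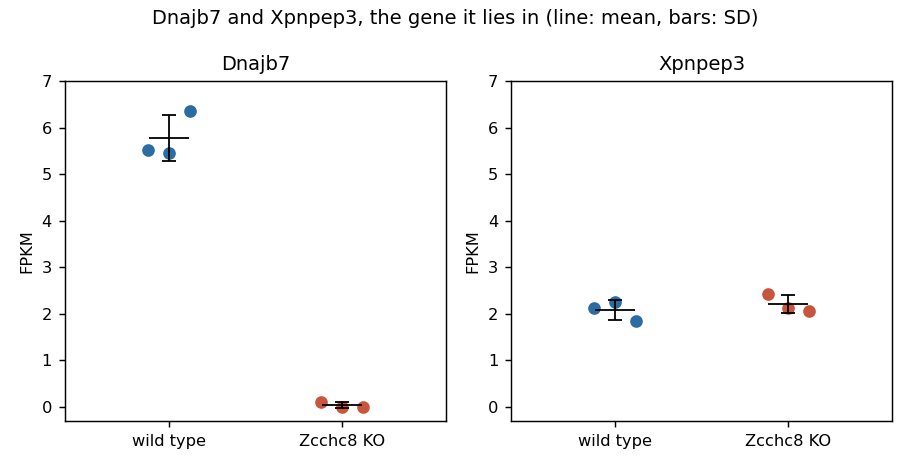
FPKM of Dnajb7 and of Xpnpep3, within whose span it lies, in each library; points are libraries, lines are means and bars SD (n = 3). Dnajb7 is at 5.45 to 6.35 in wild type and 0 to 0.113 in KO, and Xpnpep3 overlaps between the groups.

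The abundant J proteins of the cytosol did not pass the test. Dnajb1 encodes the main inducible J protein (HSP40) of the cytosol. It was at 107.8, 99.4 and 101.7 FPKM in wild type against 79.1, 82.3 and 95.9 FPKM in KO, for a log2 change of -0.26 ± 0.12 with a limma adjusted p of 0.55. All 3 KO libraries were below all wild-type libraries, and the third KO library was the nearest to them. Dnaja2, a constitutive partner of cytosolic HSP70, was at 86.0, 75.4 and 80.5 FPKM in wild type against 81.2, 91.9 and 95.4 FPKM in KO, with overlap. Dnajb2, which handles ubiquitylated clients, was at 13.1, 12.9 and 14.1 FPKM against 12.9, 10.8 and 9.58 FPKM, and is named here after its values were seen because its groups did not overlap. Its limma adjusted p was 0.746.

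J proteins with tasks in the nucleus, at the ribosome and in mitochondria come next, and none passed the test. Dnajc9, a histone chaperone, was the most abundant of the DNAJC class at 97.6, 140.5 and 100.6 FPKM in wild type against 119.0, 104.9 and 112.5 FPKM in KO. Dnajc8, found with the spliceosome, was at 65.3, 52.1 and 55.2 FPKM against 58.9, 57.2 and 71.3 FPKM. Both overlapped between the groups. Dnajc30 encodes a mitochondrial J protein tied to the respiratory chain. It was at 14.5, 8.59 and 12.7 FPKM in wild type against 16.1, 16.0 and 19.5 FPKM in KO, for a log2 change of 0.52 ± 0.24 with a limma adjusted p of 0.558. Dnajc21, a factor of large ribosomal subunit maturation, was at 0.186, 1.27 and 1.02 FPKM against 1.57, 2.66 and 2.08 FPKM, with a log2 change of 0.81 ± 0.39 and a limma adjusted p of 0.574. For both genes the KO libraries were all above the wild-type ones, by a small margin. The log2 change of Dnajc30 was 0.32 without wild-type library 2, and that of Dnajc21 was 0.52 without wild-type library 1. Dnaja3, a J protein of mitochondria, was at 27.7, 34.9 and 39.3 FPKM against 42.1, 38.8 and 38.9 FPKM, and Dnajb11, of the ER, at 33.3, 47.4 and 31.7 FPKM against 51.2, 44.8 and 26.9 FPKM. The lowest limma adjusted p of the 25 DNAJC members was 0.558, that of Dnajc30.

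In the HSP70 family the ER and the inducible cytosolic members differed in opposite directions by value. Hspa5 encodes BiP, the HSP70 of the ER, whose promoter stretch with the ER stress element is shown above. It was at 155.6, 157.4 and 159.2 FPKM in wild type against 192.9, 175.1 and 173.1 FPKM in KO. The wild-type libraries lay close together and all KO libraries were above them. The log2 change was 0.19 ± 0.09 with a limma adjusted p of 0.565, which did not pass.

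The inducible genes Hspa1a and Hspa1b, which carry the heat shock element printed above, were lower by value. The tested members with the element of 2 units did not share a direction. Dnaja1, Dnajc27, Hspb1, Hspb6, Hspb8 and Hsph1 were also lower by value, while Dnajb4, Dnajb6, Dnajc10, Hspd1 and Hspe1 were higher. A link between the element and the direction was not tested. Hspa1a was at 21.7, 15.8 and 24.1 FPKM in wild type against 6.73, 19.2 and 13.9 FPKM in KO, for a log2 change of -0.68 ± 0.35 with a limma adjusted p of 0.593. Hspa1b was at 10.3, 3.72 and 10 FPKM against 2.86, 5.21 and 3.99 FPKM, a log2 change of -0.76 ± 0.39 with a limma adjusted p of 0.594. For each, 1 wild-type library reached into the KO values. The log2 change of Hspa1a was -0.29 without KO library 1, and that of Hspa1b was -1.18 without wild-type library 2. The transcripts share 1716 stretches of 50 bases, 58.8% of those of Hspa1a and 62.3% of those of Hspa1b, so reads may be split between them. Their sum was 28.55 ± 7.85 FPKM in wild type against 17.28 ± 7.41 FPKM in KO (SD, n = 3 each), a ratio of 0.605 with p = 0.2 in an exact two-sided permutation test.

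Hspa8 was at 208.5, 221.1 and 223.9 FPKM in wild type against 201.1, 211.9 and 203.5 FPKM in KO, for a log2 change of -0.08 ± 0.08 with a limma adjusted p of 0.803. Hspa12b, a distant HSP70 relative known from endothelium, was at 1.92, 5.44 and 5.17 FPKM against 9.59, 5.19 and 5.80 FPKM, with a limma adjusted p of 0.654. Among the HSP110 exchange factors, Hspa4 was at 29.6, 32.5 and 23.1 FPKM against 28.9, 29.9 and 26.0 FPKM. Hsph1, the inducible one, was at 21.1, 15.8 and 24.2 FPKM against 14.2, 19.5 and 18.6 FPKM, a log2 change of -0.20 ± 0.22. All of these overlapped between the groups. Hspa12b was at a log2 change of 0.28 without wild-type library 1 and 0.41 without KO library 1, against 0.65 with all. Hsph1 was at -0.07 without wild-type library 3 or KO library 1 and at -0.37 without wild-type library 2.

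The genes of HSP90 and of the mitochondrial chaperonin overlapped between the groups, Hsp90b1 of the ER included. Hsp90ab1 was at 377.5, 386.2 and 375.2 FPKM in wild type against 372.8, 347.8 and 379.1 FPKM in KO, for a log2 change of -0.05 ± 0.07. Hsp90aa1, its inducible paralogue, was at 63.7, 59.5 and 48.8 FPKM against 49.1, 51.3 and 57.0 FPKM, a log2 change of -0.12 ± 0.15, and -0.04 and -0.23 without wild-type library 1 or 3. Summed over the 3 HSP90 genes the level was 482.0 ± 7.49 FPKM in wild type against 461.5 ± 17.7 FPKM in KO. Hspe1, encoding HSP10, was at 113.9, 103.6 and 86.0 FPKM against 108.9, 100.6 and 124.7 FPKM.

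Among the small heat shock proteins, which hold unfolded clients for later refolding, Hspb6, Hspb8 and Hspb9 were scattered among libraries of the same group and Hspb1 was not. Hspb6 was at 4.55, 8.25 and 4.78 FPKM in wild type against 0, 0.459 and 3.40 FPKM in KO, for a log2 change of -1.84 ± 0.54 with a limma adjusted p of 0.325. All KO libraries were below the wild-type ones and differed among themselves from 0 upward. Hspb8, a partner of BAG3 in selective autophagy, was at 1.73, 6.05 and 6.94 FPKM against 4.97, 0 and 0 FPKM, with overlap and a limma adjusted p of 0.559. Hspb1, the inducible member, was at 4.995, 5.78 and 6.57 FPKM against 4.56, 3.84 and 3.91 FPKM, without overlap and with a limma adjusted p of 0.686. Hspb9, known from testis, was at 7.09, 0 and 0.874 FPKM against 15.4, 4.29 and 1.52 FPKM, with a limma adjusted p of 0.686. Hspb6, Hspb8 and Hspb9 each had at least 1 library at 0. The log2 change of Hspb8 was -1.56, and -2.42 without KO library 1. The change of Hspb9 was 0.56 without KO library 1, 0.63 without wild-type library 2 and 2.14 without wild-type library 1, against 1.28 with all libraries.

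Further members of the ER and of mitochondria overlapped between the groups. In the ER, Dnajc3, which restrains the kinase PERK, was at 10.4, 19.1 and 14.4 FPKM in wild type against 18.9, 16.2 and 16.9 FPKM in KO. Hsp90b1, the HSP90 of the ER, was at 40.9, 43.9 and 50.5 FPKM against 37.8, 45.6 and 43.9 FPKM, and Dnajb9, a J protein that binds BiP, at 25.6, 39.9 and 32.8 FPKM against 25.9, 29.5 and 35.2 FPKM. The 3 genes with the ER stress element, Hspa5, Dnajc3 and Hsp90b1, thus did not share a direction by value. In mitochondria, Hspd1, encoding HSP60, was at 71.4, 69.3 and 65.5 FPKM against 73.3, 85.9 and 70.7 FPKM, with a log2 change of 0.15 ± 0.13. Hspa9, the mitochondrial HSP70, was at 41.3, 43.8 and 34.0 FPKM against 48.2, 40.4 and 37.5 FPKM, with a log2 change of 0.08 ± 0.17.

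Some rare members varied widely between libraries of 1 group. Dnajb3, an intronless J protein gene, was at 0, 3.22 and 20.9 FPKM in wild type against 4.55, 5.42 and 2.10 FPKM in KO, so that its mean was higher in wild type while its log2 change was 0.08 ± 0.93. Dnajb13, of motile cilia and sperm flagella, was at 4.68, 0 and 2.01 FPKM against 0.968, 4.09 and 1.14 FPKM. The spread of both within a group exceeded the difference between the groups. The 4 members below a mean of 1 FPKM, Dnaja4, Dnajb5, Hspa1l and Hspbap1, were not tested with the rest. They gave p = 0.8, 0.5, 0.4 and 0.3 in exact two-sided permutation tests, and the groups overlapped for each.

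The transcription factors of the heat shock response did not pass the test. Hsf1 was at 7.21, 17.2 and 9.97 FPKM in wild type against 10.4, 7.24 and 8.35 FPKM in KO, for a log2 change of -0.30 ± 0.32 with a limma adjusted p of 0.817, and the change was 0.01 without wild-type library 2. Hsf2 was at 5.70, 6.77 and 7.71 FPKM against 7.24, 10.2 and 5.62 FPKM, a log2 change of 0.14 ± 0.28 with a limma adjusted p of 0.92, and -0.06 without KO library 2. The direction of both therefore rested on 1 library each.

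Grouped by where the proteins act, the members are described by their medians, and none of the groups was tested as such. The 21 tested cytosolic members had a median log2 change of -0.193, with 5 higher and 16 lower by value. The 9 of the ER had a median of 0.048, with 6 higher, and the 8 of mitochondria a median of 0.146, with 7 higher. Over the other settings the median ranged from -0.219 to -0.097 for the cytosol, from -0.001 to 0.208 for the ER and from 0.023 to 0.16 for mitochondria. The ER median was -0.001 without KO library 1, with 4 higher and 5 lower, and the mitochondrial one 0.023 without wild-type library 3. The mitochondrial members summed to 288.6, 278.0 and 255.6 FPKM in wild type against 308.0, 301.8 and 309.4 FPKM in KO, without overlap. The cytosolic sums did not overlap either, at 1121, 1093 and 1113 FPKM against 990.9, 1029 and 1082 FPKM. Those of the ER overlapped, at 287.2, 335.3 and 313.2 FPKM against 351.9, 346.5 and 317.3 FPKM. How often sums of other genes separate was not tested. The 7 heat-inducible genes Dnaja1, Dnajb1, Hsp90aa1, Hspa1a, Hspa1b, Hspb1 and Hsph1 had a median of -0.265. All 7 were lower by value and 0 passed. They summed to 253.8, 220.0 and 233.5 FPKM in wild type against 172.4, 202.6 and 214.3 FPKM in KO, also without overlap. These groups were drawn up after the values had been seen and are a description only. The heat-inducible group leaves out Dnajb6, Hspd1 and Hspe1, whose windows held the heat shock element of 3 units. Their log2 changes were 0.03, 0.15 and 0.14. Hsph1, which is in the group, also held it and was at -0.20. Dnajb1 alone held a mean of 103.0 of the summed 235.7 FPKM in wild type and 85.8 of 196.4 FPKM in KO. Over the other settings the median of the heat-inducible genes ranged from -0.37 to -0.21, and 1 of the 7 was higher without wild-type library 1 and without KO library 1. The immediate early genes, which rise when cells are handled, summed to 537.3 to 584.8 FPKM in wild type against 475.5 to 568.4 FPKM in KO, and 8 of 9 were lower by value with 0 past the threshold. Their part in the levels of the heat-inducible genes was not tested.

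**Figure D4:**
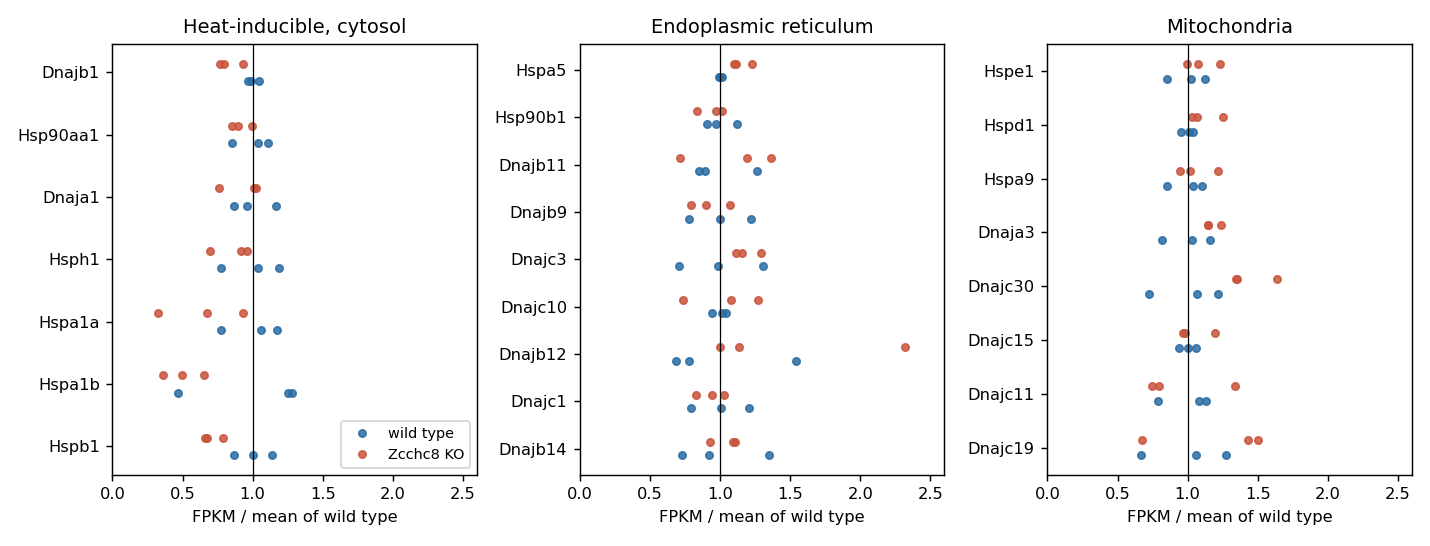
FPKM of heat-inducible, ER and mitochondrial chaperones in each library, divided by the gene's wild-type mean (vertical line at 1). All KO points of each heat-inducible gene other than Dnaja1 lie left of the line. Those of Hspa5, Dnajc3, Dnajc30, Dnaja3 and Hspd1 lie right of it. Several of these genes still overlap between the groups.

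Several members have processed pseudogenes, copies without introns, that share sequence with them, and some of these copies carried more reads than the member itself. For 6 members, 12 copies that share at least 5% of the member's 50-base stretches were in the table, and 0 of the 12 were past the threshold by limma, with 1 at an unadjusted p under 0.05. Gm15459, a copy of Hspa8, was at 3294 ± 61.9 FPKM in wild type against 3290 ± 70.7 FPKM in KO (SD, n = 3 each), far above Hspa8. Hspa8 with its 5 copies took 8467 ± 114 RPM (reads scaled to library depth) in wild type and 8402 ± 122 in KO, of which 88.5% to 89.9% fell on the copies, with p = 0.5 in an exact two-sided permutation test. For Dnaja1, 80.1% to 85.6% of such reads fell on 2 copies, and the sum was 973.0 ± 109 RPM against 939.9 ± 15.2. The levels of Hspa8 and Dnaja1 on their own rows thus hold a minor share of the reads counted on them and their copies. Whether the reads on a copy came from it or from the member was not tested. Hspb1, Hsp90aa1 and Hspd1 share 48.8%, 41.8% and 38.0% of their 50-base stretches with pseudogenes whose symbols are not among the deposited genes. The levels of these 3 members are uncertain too. Hspe1 shares 17.9% of its stretches with a gene annotated as protein coding that is also not among the deposited genes. Its level is uncertain for the same reason.

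Dnajc2, a ribosome-bound J protein, differed from these. Its copy Gm18913 was at 56.1, 54.4 and 57.6 FPKM in wild type against 84.7, 97.7 and 74.3 FPKM in KO, for a log2 change of 0.59 ± 0.14 with a limma adjusted p of 0.18. The groups did not overlap. Dnajc2 and the copy together took 148.2 ± 2.59 RPM in wild type and 208.9 ± 31.1 in KO, with p = 0.1 in an exact two-sided permutation test, the smallest it can give, and 65.2% to 74.0% of the reads on the copy. Dnajc2 itself was at 9.88, 10.3 and 8.37 FPKM against 10.6, 13.3 and 9.41 FPKM, with overlap. The gene and its copy are reported as uncertain because the sources used here do not say how reads with several matches were counted.

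**Figure D5:**
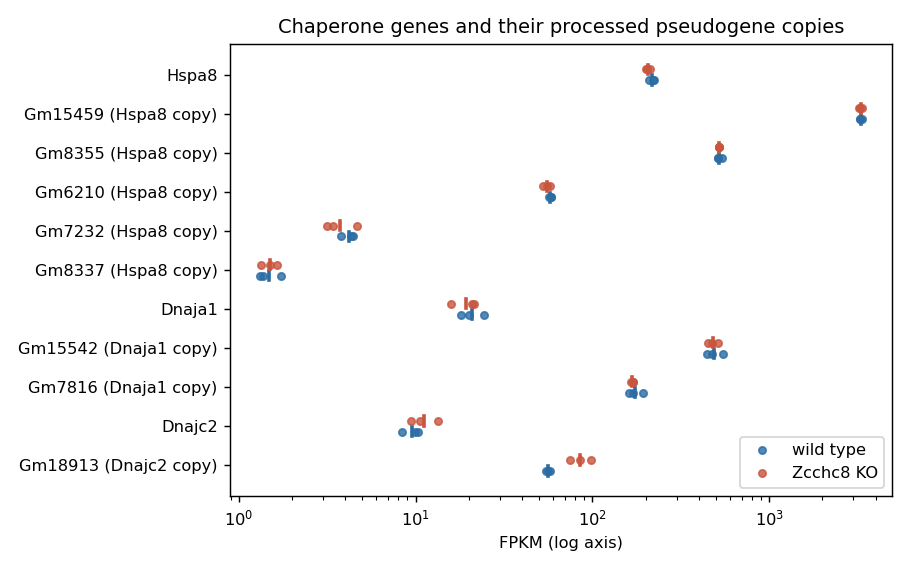
FPKM (log axis) of chaperone genes and of pseudogene copies in each library; points are libraries and ticks group means. Gm15459 and Gm8355 lie above Hspa8 and both copies lie above Dnaja1, with overlap between the groups, while Gm18913, the copy of Dnajc2, is higher in all KO libraries.

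The partners of these chaperones were read from 8 lists. Of 76 tested genes 0 passed by limma. At an unadjusted p under 0.05, 3 were higher (3.95%, against 4.87% of all tested genes) and 0 lower (against 4.33%). By voom 0 passed, with 7 higher at that p (9.21%, against 4.43% of all genes it tested) and 1 lower (1.32%, against 4.84%). Bag1, an exchange factor that resets HSP70, was at 29.4, 27.9 and 29.2 FPKM in wild type against 54.2, 57.3 and 42.9 FPKM in KO, for a log2 change of 0.80 ± 0.16 with a limma adjusted p of 0.129. Grpel2, a mitochondrial exchange factor, was at 3.92, 4.13 and 3.97 FPKM against 7.61, 6.02 and 7.08 FPKM, with a limma adjusted p of 0.496. In both, all KO libraries were above all wild-type ones. Atf4, a factor of the integrated stress response, was at 80.8, 77.3 and 57.1 FPKM against 96.3, 116.0 and 83.5 FPKM, also without overlap, with a limma adjusted p of 0.478. Manf, an ER protein that binds BiP, was at 37.8, 37.6 and 32.9 FPKM against 43.3, 46.6 and 45.6 FPKM, with a limma adjusted p of 0.542.

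The 8 genes of TRiC, the cytosolic chaperonin that folds actin and tubulin, were all higher by value with a median log2 change of 0.123. Its subunit gene Cct2 was at 47.6, 51.0 and 48.4 FPKM in wild type against 56.8, 59.3 and 55.2 FPKM in KO, with a limma adjusted p of 0.639. Tcp1, another subunit gene, was at 48.7, 41.1 and 32.4 FPKM against 47.6, 56.4 and 46.1 FPKM, with overlap and a limma adjusted p of 0.646. Of 18 HSP90 co-chaperone genes 14 were higher by value, of 11 HSP70 exchange factors and co-chaperones 8, of 6 prefoldin genes 4, and of 10 mitochondrial folding and protease genes 5. The 19 ER folding and unfolded protein response genes had 12 higher by value, and their sum was 1236 ± 3.79 FPKM in wild type against 1352 ± 33.4 FPKM in KO. Over all tested genes 50.2% were higher by value. Tomm70a, an HSP90-binding import receptor of the mitochondrial outer membrane, was at 10.2, 4.89 and 5.21 FPKM against 9.21, 12.8 and 11 FPKM, with a limma adjusted p of 0.551. Afg3l2, a protease subunit of the inner membrane, was at 6.24, 6.82 and 7.99 FPKM against 10.7, 10.3 and 8.59 FPKM, without overlap and with a limma adjusted p of 0.612. Of 3 tested genes for J proteins with other symbols, 1 was higher by value and 2 lower. The remaining genes of smallest p in these lists, Pfdn6, Pfdn1, Rpap3, Clpx, Sec63, Hscb and Hsbp1, had limma adjusted p values from 0.592 to 0.987.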

How the data were processed

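RNA sequencing of 6 samples, 3 per group by sample title, was analysed as 1 table of 14986 genes. The values are FPKM as the authors deposited them. Per the submitters' processing notes, fastp, Bowtie2 and featureCounts were used with mm10. The sources used here do not give versions, strand use or how reads with several matches were counted. Because Bowtie2 makes no spliced alignments, reads across exon junctions can be lost or placed on processed pseudogenes.

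Genes averaging 1 FPKM or more were tested two-sided on log2(FPKM + 1), a scale that shrinks changes of low genes, in limma 3.58.1 (R 4.3.3; lmFit, then eBayes using the mean-variance trend), with Benjamini-Hochberg adjustment over 11837 genes and a threshold of 0.05. Identifiers, coordinates and exon lengths came from GENCODE M21 for 14693 symbols (98.0%). FPKM times exon length is a multiple of the worth of 1 read: 98.0% of values below 100 reads were whole within 0.05, which gave the reads. Whole reads were not used in the main test. Amplified cDNA without molecular identifiers repeats molecules, so intervals cover counting error only. Exact permutation tests took single values over samples.

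Named were Zcchc8, members past the threshold, Hsf1, Hsf2, the 12 members of smallest p, the 2 most abundant per family, genes overlapping a passing member, and the 2 genes of smallest p per related list. Dnajb2, Bud23, the members described as other, rare or copied, and those named only for the heat shock element were added after their values were seen. 1 member is not reported here, though the counts include it. Members and lists were chosen with earlier results of these data known. Compartments, the heat-inducible group, the copies, the ER stress element and voom on recovered reads were added after seeing the data. The scripts were tested on simulated data, 10 tables of 11837 genes each, with 200 changed. They recovered 20.6% of changes of size 1 (log2) and 63% of size 2; 4.68% of their calls were false and 0 had the wrong sign. The alternatives varied the pseudocount, filter, scaling, variance model, block and libraries. Figures used matplotlib 3.10.9.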

Additional observations from a re-analysis of the deposited data

How the results depend on the processing

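The 27 genes called over the whole table became 8 without the mean-variance trend, 8 by voom on recovered reads, and 11 to 19 with 1 library left out. The single member called, Dnajb7, gave a count of 0 with a pseudocount of 0.1 FPKM, with a filter at a mean of 5 FPKM (which removes it from the test), by voom, and in 5 of the 6 fits that leave out 1 library (0 to 1). Members at an unadjusted p under 0.05 numbered 2, and 5 without a filter, 0 with the filter at 5 FPKM, 4 after quantile normalization, 4 by voom and 2 to 5 with 1 library left out. The median log2 change of the members, 0.033, ranged from -0.037 to 0.048 with 1 library left out, and was -0.006 without KO library 1 and -0.037 without KO library 2. With the replicate number as a block, 11 genes and 0 members were called, Dnajb7 having a limma adjusted p of 0.075. Each library's deviations from its group mean were also compared across the tested genes. For same-numbered libraries these deviations correlated at 0.024, 0.007 and 0.004. No shared deviation is visible there, which cannot show whether the samples were paired.

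Named members that did not pass changed sign in places. Under TPM scaling Dnajc9 and Hspa4 were both at a log2 change of -0.03, and after quantile normalization Dnajc9 was at -0.07 and Hspa4 at -0.02. With 1 library left out the log2 change ranged from -0.08 to 0.37 for Dnajb11, from -0.09 to 0.17 for Dnajc9, from -0.56 to 0.01 for Hsf1, from -0.06 to 0.32 for Hsf2 and from -0.13 to 0.11 for Hspa4. The cause was not tested. Of the 25 members followed across the settings no other changed sign; members named for other reasons were not followed. With 3 libraries per group, the precision of rare members is limited by the spread between libraries.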
